A study of Homo sapiens with 6 samples.

Results

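The genes described here encode the enzymes that modify and conjugate drugs, steroids, lipids and pigments such as bilirubin. They are the cytochromes P450 (CYP), the UDP-glucuronosyltransferases (UGT), the glutathione S-transferases (GST) and the sulfotransferases (SULT), together with the aryl hydrocarbon receptor AHR, its partner ARNT and the aldehyde dehydrogenase ALDH3A1. A gene was a member if its symbol had the form of one of these families and stood alone on a probe set of the array, and the probe set with the highest mean was taken for each gene. By this rule 70 of the 11963 genes with such a probe set were members. They comprised 40 CYP, 15 GST, 7 SULT and 5 UGT genes and the 3 others, and 19 of them had more than 1 probe set. Their values came from 6 Affymetrix GeneChip arrays of SH-SY5Y cells, a human neuroblastoma line grown in medium with foetal bovine serum. On 3 of the arrays the cells had been exposed for 1 h to unconjugated bilirubin at a free concentration of 140 nM (Bf 140 nM). The 3 control arrays came from cells given for the same time the solvent alone, DMSO 0.6%. Bilirubin was added in DMSO, so both groups carry it. The flasks were independent biological replicates, each group carries the replicate numbers 1 to 3, and the culture is a single tumour line without the liver cells in which most of these enzymes are best known. RNA was taken from whole cultures, so fewer cells making a transcript and less transcript per cell cannot be told apart.

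These families act in sequence. Cytochromes P450 insert oxygen into their substrates, taking electrons from the reductase POR or, in mitochondria, from the ferredoxin FDX1. The transferases then attach glucuronic acid, glutathione or sulfate, which makes the product soluble enough to be exported. Bilirubin is excreted after UGT1A1 of the liver has conjugated it with glucuronic acid, and within hepatocytes it is held by GSTA1, also called ligandin. AHR is a receptor of the cytoplasm, where it is kept by HSP90 and PTGES3. Once bound by a ligand it joins ARNT in the nucleus and switches on CYP1A1, CYP1A2, CYP1B1, ALDH3A1 and NQO1, and bilirubin is among its described ligands.

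The arrays were suited to asking which of these genes a neuroblastoma cell holds at a measurable level and whether 1 h of bilirubin moved any of them. The values are on a generalized log2 scale, where 1 unit stands for 2-fold among bright probe sets but for a larger true fold among dim ones. The array medians lay between 7.73 and 7.97. Both replicate 3 arrays stood apart, with 3′ minus 5′ values of the actin control of 1.49 log2 (Bf 140 nM) and 1.90 log2 (DMSO 0.6%), against 0.10 to 0.50 on the remaining 4 arrays. The cells carried the markers of their label, with 9 of 11 measured noradrenergic neuroblastoma genes at least 1 log2 above the array median on all 6 arrays. Of the other 2, HAND2 lay on both sides of the median and TH, the enzyme that starts catecholamine synthesis, lay 1.25 to 1.58 log2 below it. All 10 hepatocyte markers, albumin among them, lay below the median on all 6 arrays. Of 8 markers of mesenchymal or substrate-adherent cells, COL3A1 and FBN1 were at least 1 log2 above the median on all 6 arrays, and COL1A2, TAGLN and POSTN lay below it on all 6, POSTN by 1.56 to 2.00 log2. The summed level of these 8 was 65.9 to 67.7 in Bf 140 nM and 66.3 to 68.3 in DMSO 0.6%, and the part of such cells in the values of the members was not tested.

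GSTP1 and GSTO1, of the members well above the array median, and CYP1A1 and CYP1A2, the best known AHR targets and below it, are shown by the 250 bases before their RefSeq start in GRCh38.p14. The windows are chr11:67583562-67583811 on the plus strand for GSTP1, chr10:104254642-104254891 on the plus strand for GSTO1, chr15:74725529-74725778 on the minus strand for CYP1A1 and chr15:74748595-74748844 on the plus strand for CYP1A2, each written 5′ to 3′. Capitals mark GCGTG, the core that AHR and ARNT bind, and TGACNNNGC, the core of the antioxidant response element, both searched on either strand. No window printed holds both cores, so the matches do not overlap.
GSTP1: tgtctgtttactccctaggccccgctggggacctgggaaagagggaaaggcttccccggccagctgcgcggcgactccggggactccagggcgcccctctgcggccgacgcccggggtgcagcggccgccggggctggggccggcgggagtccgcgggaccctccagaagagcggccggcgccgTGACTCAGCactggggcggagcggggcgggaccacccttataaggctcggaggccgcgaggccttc
GSTO1: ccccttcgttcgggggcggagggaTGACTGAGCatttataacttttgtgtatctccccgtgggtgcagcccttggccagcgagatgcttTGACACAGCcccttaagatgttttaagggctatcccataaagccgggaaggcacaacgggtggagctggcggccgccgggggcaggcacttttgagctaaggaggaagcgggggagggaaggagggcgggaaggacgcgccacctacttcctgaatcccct
CYP1A1: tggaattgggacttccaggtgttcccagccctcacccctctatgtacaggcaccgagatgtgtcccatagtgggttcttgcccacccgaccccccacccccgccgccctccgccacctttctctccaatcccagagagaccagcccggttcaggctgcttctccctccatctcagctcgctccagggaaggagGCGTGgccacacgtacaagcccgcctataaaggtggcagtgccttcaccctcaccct
CYP1A2: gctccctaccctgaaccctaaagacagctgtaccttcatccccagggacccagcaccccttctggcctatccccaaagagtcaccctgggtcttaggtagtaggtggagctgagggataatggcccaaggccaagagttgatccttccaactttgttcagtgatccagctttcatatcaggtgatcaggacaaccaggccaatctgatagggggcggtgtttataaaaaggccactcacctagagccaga
GSTP1 held TGACTCAGC from position -66, counted back from the start. GSTO1 held TGACTGAGC from -226 and TGACACAGC from -161. Of the other GST genes well above the array median, GSTA4 held TGACNNNGC in its window, while GSTK1, GSTM2 and GSTM3 did not. CYP1A1 held GCGTG from -57, and CYP1A2 held neither core in these 250 bases. Over 27305 promoter windows of the same length, 31.9% held GCGTG and 11.03% held TGACNNNGC, so a match is a description of the letters only. CG dinucleotides numbered 28 in the GSTP1 window, 14 in that of GSTO1, 10 in that of CYP1A1 and 1 in that of CYP1A2, where the median window held 11. The arrays measured no binding or methylation at these sequences. The table of promoters held 50 of the 70 members (71.4%), too few for a check over the whole set.

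A few GST genes stood well above the array median, while most other members lay below it. Only 7 of the 70 members were at least 1 log2 above the median of the array on all 6 arrays, which is 10.0% of them, where 36.5% of all genes were. They were GSTO1, GSTP1, GSTM3, GSTA4, GSTK1, GSTM2 and SULT1A1, and the first 4 were more than 2 log2 above it. In the other direction 48 members (68.6%) lay below the median on all 6 arrays, where 38.6% of all genes did. Of the 70 members, 26 (37.1%) lay under the lower quartile of the array on all 6 arrays, where 15.7% of all genes did. The median level was 7.11 log2 over the members and 8.35 over all genes. These counts are a description of probe sets, since brightness also depends on the probes, and they give no order of the transcripts by amount. For 13 of the 70 members, 2 of the 7 well above the median among them (GSTM2 and SULT1A1), the chosen probe set is of the kind that holds probes matching other sequences as well.

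**Figure D1:**
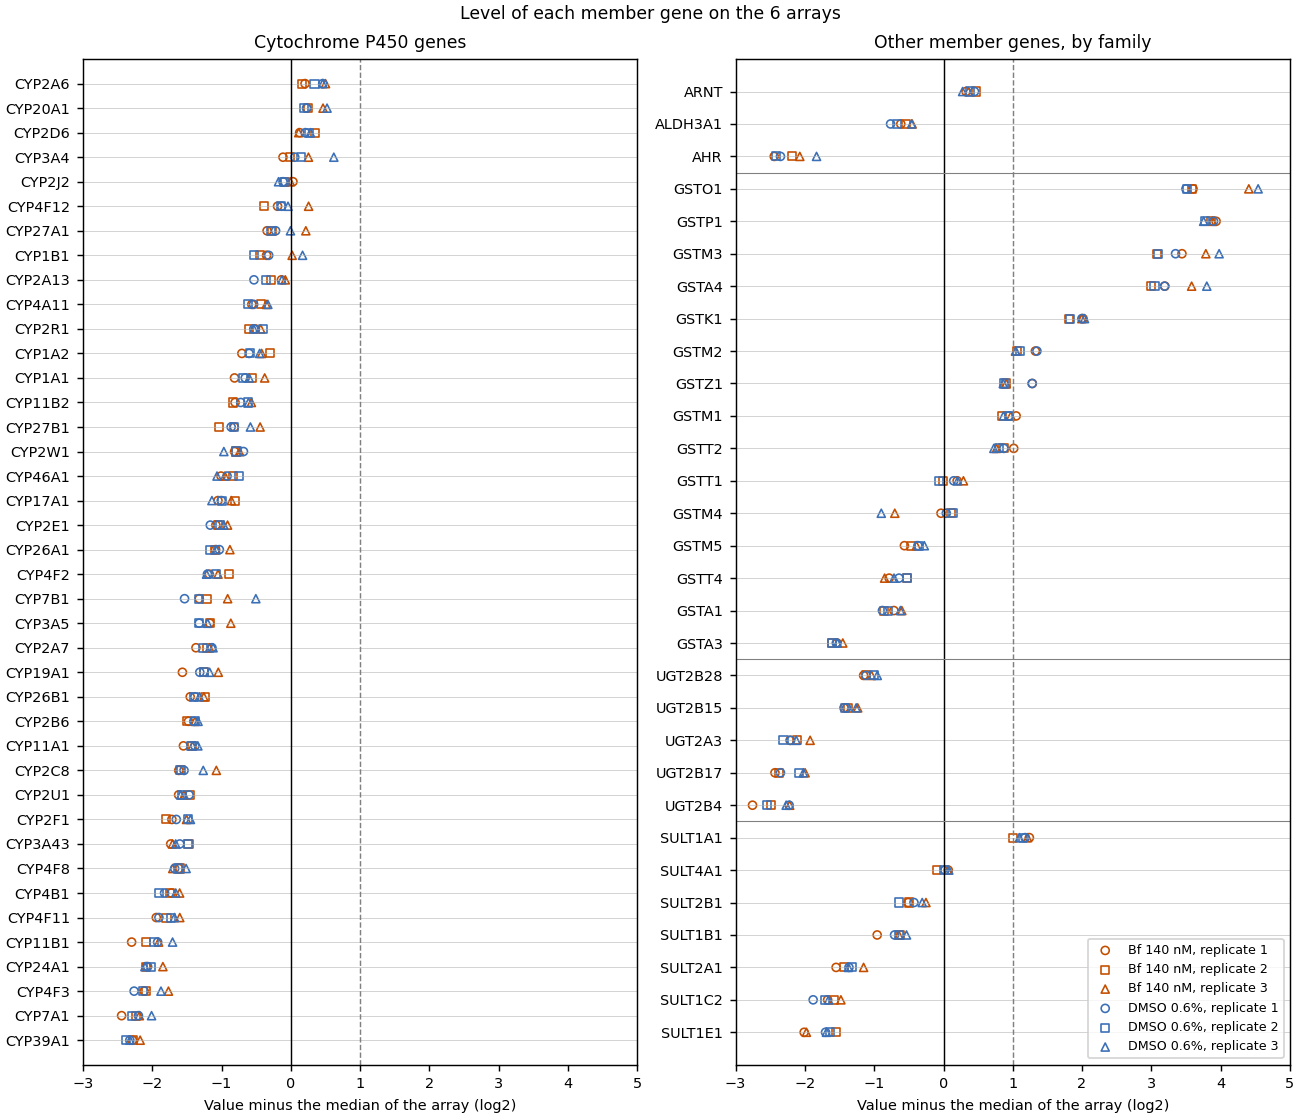
Level of each of the 70 member genes on the 6 arrays, as the value minus the median of the same array on the log2 scale (horizontal axis), for the 40 CYP genes (left) and the other families (right). Orange symbols are Bf 140 nM and blue symbols DMSO 0.6%, with a shape for each replicate number. The dashed line marks 1 log2 above the median, and 7 genes, 6 of them GST, lie beyond it on all 6 arrays, with SULT1A1 reaching down to 1.00.

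Of the 15 GST genes 6 (40.0%) were at least 1 log2 above the median on all arrays, near the 36.5% of all genes. Below it on all arrays lay 4 (26.7%), where 38.6% of all genes did. GSTP1, the main transferase of many tumours and of tissues outside the liver, had values of 11.90, 11.79 and 11.66 in Bf 140 nM and 11.85, 11.73 and 11.48 in DMSO 0.6%. This is 3.75 to 3.93 log2 above the array median. GSTO1, which reduces oxidized thiols and arsenic compounds, had 11.57, 11.53 and 12.18 in Bf 140 nM and 11.45, 11.46 and 12.27 in DMSO 0.6%. In both groups its replicate 3 array was the highest. GSTM3, a mu class enzyme of brain and testis, lay between 11.02 and 11.71, and GSTA4, which conjugates the lipid aldehyde 4-hydroxynonenal, between 10.93 and 11.53. GSTK1, the enzyme of mitochondria and peroxisomes, stayed within 9.74 and 9.98 on the 6 arrays. GSTM2 lay between 8.77 and 9.30, and its lowest distance above the array median was 1.04 log2.

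Just inside the bound of 1 log2 stood GSTM2 and SULT1A1, with lowest distances of 1.04 and 1.00, and just outside it GSTZ1 with 0.86, GSTM1 with 0.85 and GSTT2 with 0.73. GSTZ1, which isomerizes an intermediate of tyrosine breakdown, had values from 8.59 to 9.25. GSTM1, a gene that many people lack, had values from 8.59 to 9.02, also on a probe set with cross-matching probes. GSTT1 crossed the median, and so did GSTM4. The genes GSTM5, GSTT4, GSTA1 and GSTA3 lay below it on all 6 arrays. GSTA1, the bilirubin-binding ligandin, was at 7.25, 7.08 and 7.18 in Bf 140 nM and at 7.07, 7.14 and 7.11 in DMSO 0.6%, 0.60 to 0.88 log2 below the array median.

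**Figure D2:**
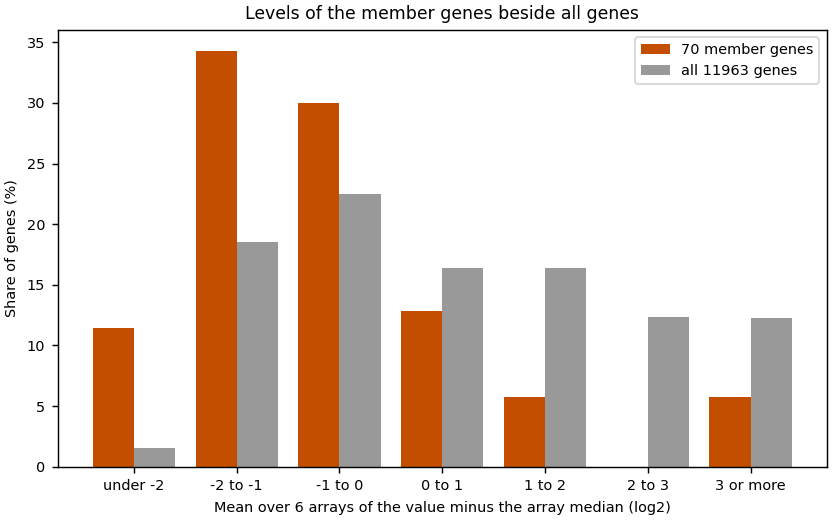
Share of genes (vertical axis, percent) by the mean over 6 arrays of the value minus the array median (horizontal axis, log2), for the 70 member genes (orange) and all 11963 genes (grey). Of the members 8 (11.4%) had a mean more than 2 log2 below the median, where 1.58% of all genes did, and 4 had a mean of 3 log2 or more above it.

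No cytochrome P450 gene was well above the array median. Of the 40 measured, 32 lay below the median on all 6 arrays, 17 of them under the lower quartile of each array. CYP2A6, CYP2D6 and CYP20A1 lay above it on all 6. The second CYP2D6 probe set was lower, with a mean level of 7.39 and a mean distance of -0.49 log2 from the median. CYP2A6, which oxidizes nicotine and coumarin and also bilirubin, was at 8.17, 8.09 and 8.28 in Bf 140 nM and at 8.41, 8.29 and 8.19 in DMSO 0.6%, on a probe set with cross-matching probes. Its other 3 probe sets went down to 7.26. CYP20A1, an orphan P450 without an assigned substrate, was at 8.14 to 8.25 on all 6 arrays. CYP1A1, the classical AHR target, was at 7.16, 7.37 and 7.40 in Bf 140 nM and at 7.29, 7.26 and 7.13 in DMSO 0.6%. CYP1A2 was at 7.26, 7.63 and 7.36 in Bf 140 nM and at 7.35, 7.36 and 7.28 in DMSO 0.6%, on a probe set of the cross-matching kind. CYP1B1, an AHR target outside the liver, was at 7.62, 7.49 and 7.80 in Bf 140 nM and at 7.63, 7.42 and 7.90 in DMSO 0.6%. For all 3 the groups overlapped, and CYP1A1 and CYP1A2 were below the array median on all 6 arrays.

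The P450 genes were grouped by family number, which is only a rough guide to role. In families 1 to 3, which hold most enzymes of drugs and foreign compounds but also the vitamin D enzyme CYP2R1, 13 of 18 genes lay below the median on all arrays, with a median level of 7.18 log2. The same held for all 5 of the steroid hormone families, for all 3 of the families that break down vitamins D and A and for 6 of 7 of family 4, of fatty acid oxidation. In the families known for cholesterol and bile acids it held for 5 of 6, among them CYP27B1, which activates vitamin D. CYP46A1, the enzyme that clears cholesterol from neurons, was another of these, at 6.96, 7.10 and 6.83 in Bf 140 nM and at 7.03, 7.20 and 6.66 in DMSO 0.6%. CYP2J2, which makes epoxides of arachidonic acid, lay between -0.18 and 0.03 log2 from the median. CYP27A1, the mitochondrial enzyme of bile acid synthesis, lay between -0.34 and 0.22 log2 from it.

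The UGT genes with a probe set of their own lay below the median throughout. UGT2B4, UGT2B15, UGT2B17 and UGT2B28, which conjugate steroids and bile acids, and UGT2A3 were below it on all 6 arrays, 4 of the 5 under the lower quartile. UGT1A1, the bilirubin transferase, shares its probe sets with other UGT1A genes, so it is no member and cannot be read alone. The 7 probe sets that name UGT1A genes jointly had levels of 6.14 to 7.73 log2, and 6 of them lay below the median on all arrays. The seventh reached 0.02 log2 above the median of 1 array. Their Bf 140 nM minus DMSO 0.6% differences lay between -0.10 and 0.09 log2, and 0 of them passed the test described below. The dimmest of them, at 6.14 log2, was lower in Bf 140 nM without overlap of the groups. Its differences were -0.10, -0.01 and -0.15 for replicate numbers 1, 2 and 3, and the groups of the others overlapped. Of all genes 0.577% were lower without overlap, and 1.13% of those below the median on all arrays.

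Of the 7 sulfotransferases SULT1A1, which sulfates phenols and drugs, was the one at least 1 log2 above the median on all arrays, at 9.21, 8.94 and 8.99 in Bf 140 nM and 9.13, 9.09 and 8.82 in DMSO 0.6%. Its second probe set had a mean of 8.52. SULT4A1, an enzyme found mainly in neurons, lay on both sides of the median, between 7.80 and 8.04. SULT1B1, SULT1C2, SULT1E1, SULT2A1 and SULT2B1 were below it on all 6 arrays. SULT1E1, which inactivates estrogen, had levels of 5.80 to 6.39, 1.55 to 2.01 log2 below the array median.

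AHR itself lay below the array median on all 6 arrays. Its values were 5.53, 5.76 and 5.70 in Bf 140 nM and 5.60, 5.54 and 5.90 in DMSO 0.6%, a group mean of 5.66 ± 0.12 (SD, n = 3) and 5.68 ± 0.19 (SD, n = 3). This is 1.83 to 2.44 log2 below the array median. ARNT was 0.28 to 0.48 log2 above the median, with 8.29, 8.41 and 8.14 in Bf 140 nM and 8.40, 8.33 and 8.004 in DMSO 0.6%. The other ARNT probe sets had mean levels of 8.14 and 7.24, with lowest distances from the median of -0.29 and -1.27 log2. ALDH3A1, which oxidizes aldehydes, was at 7.35, 7.39 and 7.33 in Bf 140 nM and 7.19, 7.27 and 7.27 in DMSO 0.6%, below the array median by 0.45 to 0.76 log2. Of 14 measured genes of the AHR pathway, 7 were well above the median, where 36.5% of all genes were. These were the chaperones HSP90AA1, HSP90AB1 and PTGES3, the partner ARNT2, the quinone reductase NQO1, the oxidative stress factor NFE2L2 and its inhibitor KEAP1. The 4 below it on all arrays were AHR, ALDH3A1, CYP1A1 and CYP1A2.

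The transcripts of proteins that serve these enzymes were read beside those of all genes. Over all genes 36.5% were well above the median and 38.6% lay below it on all arrays. Of 8 measured genes on a list of electron donors of P450 and related proteins, 5 were well above it. These were CYB5A, CYB5B, CYB5R3, FDX1 and PGRMC2, the last not itself an electron donor. CYB5R3 was 2.995 to 3.68 log2 and FDX1 1.94 to 2.65 log2 above the median. POR itself was 0.76 to 1.19 log2 above. Of 10 measured genes that supply the cofactors of conjugation, 6 were well above the median and 0 lay below it on all arrays. PAPSS1, which makes the sulfate donor, was 3.25 to 3.63 log2 above it, and UGP2, of the glucuronic acid donor, 2.22 to 2.62 log2. Of 8 measured receptors that induce drug enzymes in the liver, RXRA and RXRB were well above the median and 5 lay below it on all arrays, NR1I3 (the receptor CAR) and VDR among them.

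No member passed the test for an effect of bilirubin at 1 h. Of all 22215 probe sets 0 passed at the threshold used for limma, a Benjamini-Hochberg adjusted p under 0.10 (0.0%), and 0 passed with the replicate number as a block (0.0%). At an unadjusted limma p under 0.05 there was 1 member, CYP3A5, where 0.0585% of all genes lay, and with the replicate block there were 4, where 0.828% of all genes lay. The median difference of Bf 140 nM minus DMSO 0.6% was 0.02 log2 over the members and 0.01 over all genes, and 40 members had a positive and 30 a negative difference. The differences ran from -0.21 for CYP11B1 to 0.23 for CYP3A5. No member exceeded 1.5-fold in the mean or in any replicate pair. The 95% confidence intervals excluded a 2-fold change for 69 members and a 1.5-fold change for 68, and with the block for all 70 at both sizes. With the block, the median half-width was nearly the same in each family, from 0.180 log2 (GST) to 0.190 (CYP), and 0.190 over all genes. The block intervals therefore say little of the precision of a single gene. The exceptions without the block were GSTM4, whose interval was -0.95 to 1.04, and at 1.5-fold also GSTO1, with -0.65 to 0.73. These intervals hold on the deposited scale, which understates changes of dim probe sets, and 48 members lay below the array median on all arrays.

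**Figure D3:**
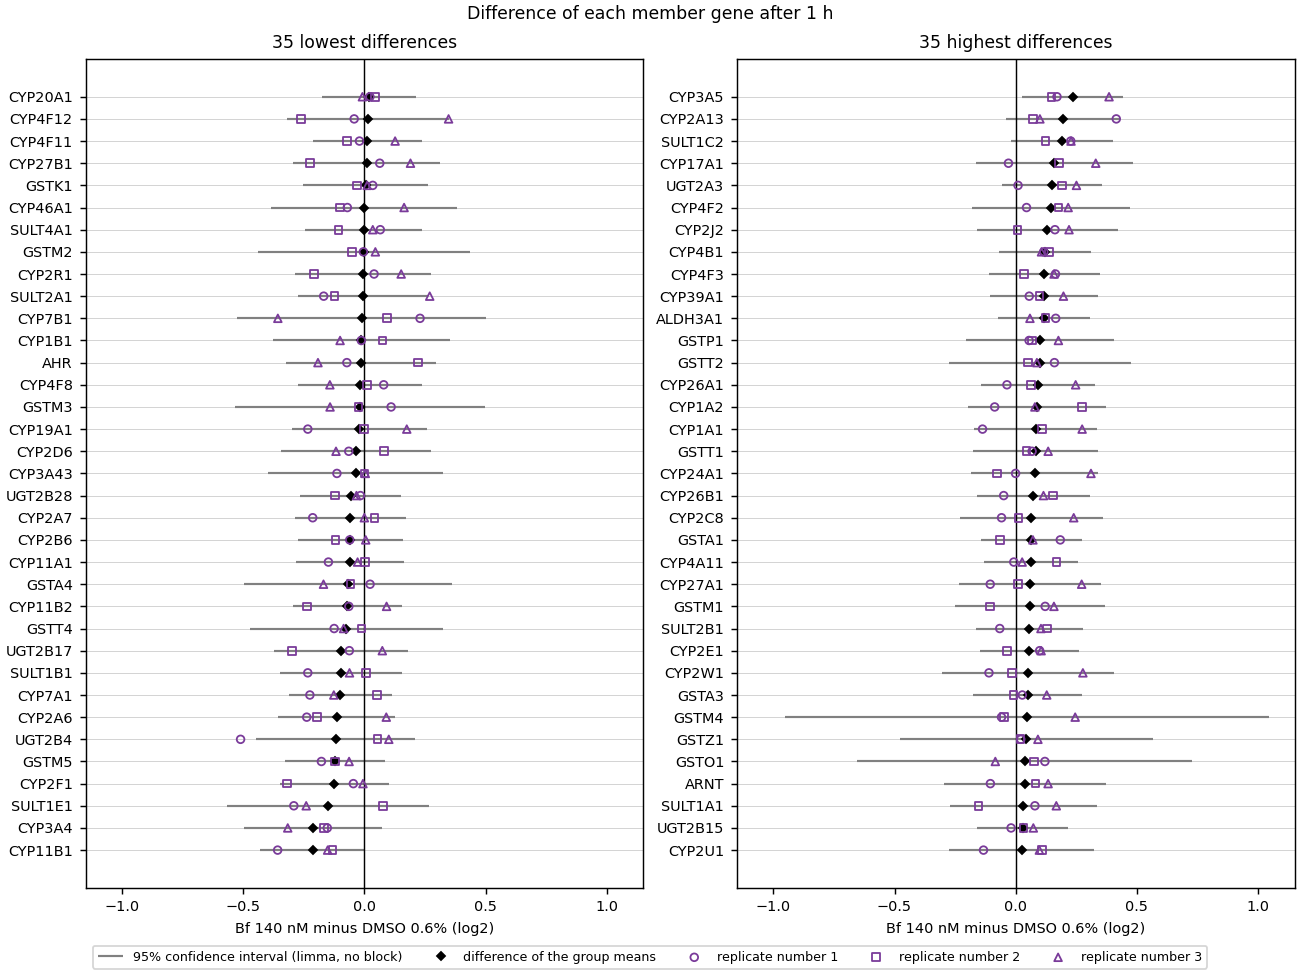
Bf 140 nM minus DMSO 0.6% after 1 h for the 70 member genes on the log2 scale (horizontal axis), ordered by the difference of the group means (diamonds), with 95% confidence intervals from limma without a block (grey lines). Open symbols are the differences within each replicate number. CYP3A5 has the highest difference at 0.23 and CYP11B1 the lowest at -0.21, and GSTM4 and GSTO1 have the widest intervals.

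CYP3A5, a P450 of drug metabolism close to CYP3A4, had the highest difference. Its values were 6.80, 6.78 and 6.91 in Bf 140 nM and 6.63, 6.63 and 6.53 in DMSO 0.6%, so the groups did not overlap. The difference was 0.23 log2 (95% confidence interval 0.03 to 0.44), or 0.17, 0.15 and 0.38 in replicate pairs 1, 2 and 3, with an unadjusted p = 0.032 and an adjusted p = 1.00 from limma. Its other 2 probe sets had differences of 0.18 and 0.09 log2, also positive, but for both the groups overlapped. The first had 6.19, 6.64 and 7.26 in Bf 140 nM and 6.38, 6.49 and 6.70 in DMSO 0.6%. Without both replicate 3 arrays the difference of the chosen probe set was 0.16. The gene lay 0.87 to 1.32 log2 below the array median.

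CYP11B1, which makes cortisol in the adrenal cortex, had the lowest difference. Its values were 5.67, 5.84 and 5.87 in Bf 140 nM and 6.03, 5.97 and 6.02 in DMSO 0.6%, again without overlap. The difference was -0.21 log2 (-0.43 to 0.00) and had the same sign in all 3 pairs, at a level 1.71 to 2.30 log2 below the array median. CYP3A4, the main P450 of the adult liver, followed with -0.21 log2 (-0.50 to 0.07). Its values overlapped, with 7.86, 7.92 and 8.03 in Bf 140 nM and 8.01, 8.09 and 8.35 in DMSO 0.6%. The other 3 CYP3A4 probe sets had differences of -0.04 to -0.01 log2, and the mean over all 4 gave -0.07. With the replicate block the intervals left out 0 for CYP3A5 (0.05 to 0.42), SULT1C2 (0.01 to 0.37), CYP3A4 (-0.39 to -0.03) and CYP11B1 (-0.40 to -0.03).

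Groups without overlap are the strongest separation that 3 arrays against 3 can show, with an exact two-sided permutation p = 0.1 for a single gene. This was so with Bf 140 nM higher for 6 members (8.57%), where 1.81% of all genes had it, and with Bf 140 nM lower for 2 (2.86%), where 0.577% had it. The 6 were CYP3A5, CYP2A13, SULT1C2, UGT2A3, CYP4B1 and ALDH3A1, and the 2 were CYP11B1 and CYP2F1. All 8 lay below the array median on all 6 arrays, where separation was more frequent over all genes too. Among the 4619 genes at that level 3.68% had Bf 140 nM higher and 1.13% lower without overlap, against 12.5% and 4.17% of the 48 members there. No p belongs to these shares, since the genes are not independent of each other.

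SULT1C2, a fetal sulfotransferase of stomach and kidney, was at 6.30, 6.35 and 6.30 in Bf 140 nM and at 6.07, 6.23 and 6.07 in DMSO 0.6%, a difference of 0.19 log2 (-0.02 to 0.40). Its other probe sets differed by 0.10 and -0.07 log2. CYP2A13, an enzyme of the airways that activates tobacco nitrosamines, was at 7.83, 7.66 and 7.70 in Bf 140 nM and 7.42, 7.59 and 7.60 in DMSO 0.6%, and replicate pair 1 contributed 0.41 of a difference whose mean was 0.19 (-0.04 to 0.43). UGT2A3 differed by 0.15 log2 (-0.06 to 0.36) and CYP4B1 by 0.12 (-0.07 to 0.31). ALDH3A1 differed by 0.12 (-0.07 to 0.31), with 0.16, 0.12 and 0.06 in pairs 1 to 3. CYP2F1, another airway enzyme, differed by -0.12 (-0.35 to 0.10). The remaining members with the most positive or most negative differences had groups that overlapped. These were CYP17A1, of steroid synthesis, at 0.16 (-0.16 to 0.48), SULT1E1 at -0.15 (-0.57 to 0.27) and GSTM5 at -0.12 (-0.33 to 0.09).

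The differences of the other AHR targets were of both signs. CYP1A1 differed by 0.08 log2 (-0.17 to 0.33), but by -0.14, 0.11 and 0.27 in pairs 1, 2 and 3. CYP1A2 differed by 0.09 (-0.20 to 0.37), with -0.09, 0.27 and 0.08. CYP1B1 differed by -0.01 (-0.38 to 0.35), with its 4 probe sets between -0.07 and 0.09. AHR differed by -0.01 (-0.32 to 0.30) and ARNT by 0.04 (-0.30 to 0.37). Over the 14 genes of the AHR pathway 0 passed limma, and the differences lay between -0.05 and 0.12 log2. The lists of electron donors and related proteins, of cofactor genes and of receptors also had 0 passing genes each, with or without the block. Their median differences were -0.03, 0.02 and 0.02 log2.

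For the 7 members well above the array median, 6 of them GST genes, the differences ran from -0.07 to 0.10 log2. The median half-width of their intervals was 0.43 log2 without the replicate block and 0.18 with it. The intervals that follow are without the block unless stated. GSTP1 differed by 0.10 log2 (-0.21 to 0.41) and by 0.06, 0.07 and 0.18 in the 3 pairs. With the replicate block its interval was -0.08 to 0.28. GSTO1 differed by 0.04 (-0.65 to 0.73), and the block narrowed this interval to -0.15 to 0.22. GSTM3 differed by -0.02 (-0.53 to 0.50), GSTA4 by -0.07 (-0.50 to 0.36), GSTK1 by 0.01 (-0.25 to 0.26) and GSTM2 by -0.00 (-0.44 to 0.43). SULT1A1 differed by 0.03 (-0.27 to 0.33). The ligandin gene GSTA1 differed by 0.06 (-0.14 to 0.27) and CYP2A6 by -0.11 (-0.36 to 0.13).

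Taken by replicate number, the direction of the members changed from pair to pair. In pair 1, 29 members (41.4%) were higher in Bf 140 nM, where 58.9% of all genes were. In pair 2 it was 40 (57.1%), where 47.3% of all genes were, and in pair 3 it was 50 (71.4%), where 54.5% were. For pairs 1, 2 and 3 the median difference of the members was -0.02, 0.01 and 0.09 log2, where that of all genes was 0.03, -0.01 and 0.02. The lower quartile of the Bf array minus that of its DMSO array was -0.03, 0.03 and 0.09 log2 in the same pairs, so the dim end of the arrays moved with the members. Its part in their differences was not tested. The 7 members well above the array median had pair medians of 0.06, -0.03 and 0.01. The most extreme single pair difference was that of UGT2B4 in pair 1, -0.51 log2, where pairs 2 and 3 had 0.05 and 0.10.

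Positive differences in all 3 pairs were found for 14 members, where 11.1% of all genes had them. Beside the 6 without overlap they included GSTP1, GSTT1, GSTT2 and GSTZ1 among the GST genes and CYP2J2, CYP39A1, CYP4F2 and CYP4F3 among the P450 genes. Negative differences in all 3 pairs were found for 6 (8.57%), where 5.17% of all genes had them. These were CYP11B1, CYP2F1, CYP3A4, GSTM5, GSTT4 and UGT2B28. Among genes below the array median on all arrays, 18.75% of the members and 15.3% of all genes were positive in all 3 pairs. At that level 10.4% of the members and 6.43% of all genes were negative in all 3. Without both replicate 3 arrays 18 of the 70 differences changed sign, and the median of the members became -0.01 log2.

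Differences between the replicate numbers were found for 18 members. A moderated F test over the 3 replicate numbers, with treatment in the limma fit, passed these 18 of 70 (25.7%) at an adjusted p under 0.10, where 44.2% of all genes passed. The count was 9 of 15 for GST genes and 7 of 40 for P450 genes, with SULT1E1 and ARNT as the other 2, and 0 of 5 for UGT genes. The GST count was made up of 5 of the 6 genes well above the array median, 3 of the 5 between and 1 of the 4 below it, where 63.5%, 55.8% and 18.4% of all genes at these levels passed. Of the 7 members well above the array median 5 passed (71.4%), and of the 48 below it on all arrays 7 passed (14.6%). On the deposited values 5 of the 18 were higher and 13 lower in replicate 3. With the array medians made equal the count was 22, of which 19 were higher and 3 lower, and with quantile normalization 20, of which 13 were higher and 7 lower. The median of all genes in replicate 3 minus replicates 1 and 2 was -0.05, 0.15 and 0.04 log2 in these 3 scalings.

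**Figure D4:**
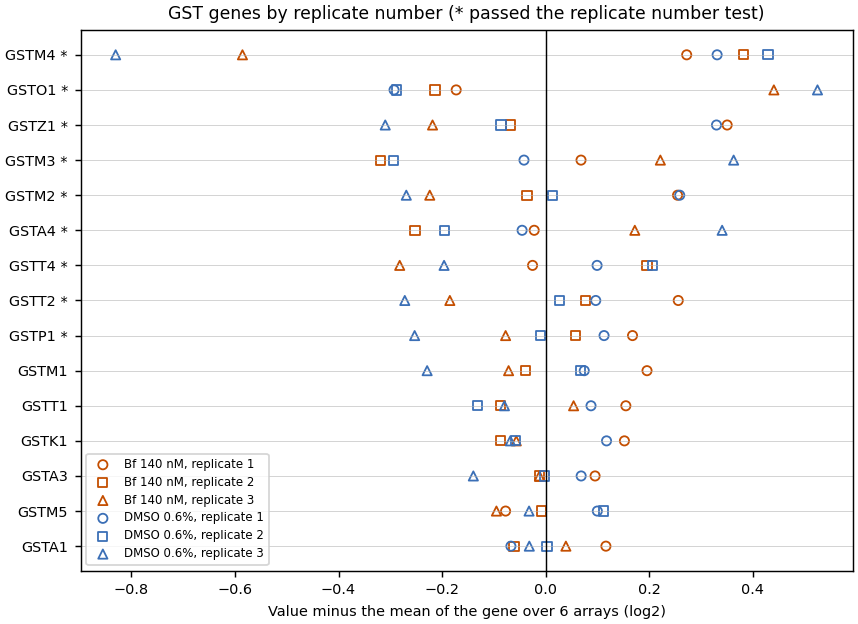
The 15 GST genes by replicate number, as the value on each array minus the mean of the gene over 6 arrays (horizontal axis, log2), with orange for Bf 140 nM, blue for DMSO 0.6% and a shape for each replicate number. Genes with a star passed the replicate number test from limma. The replicate 3 triangles lie to the right for GSTO1, GSTM3 and GSTA4 and to the left for GSTM4, GSTZ1 and GSTM2, with Bf 140 nM and DMSO 0.6% on the same side.

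Under all 3 scalings 8 members passed with a constant sign. GSTO1, GSTM3, GSTA4, CYP1B1 and CYP7B1 were higher in replicate 3, and GSTM4, GSTZ1 and GSTM2 were lower. GSTM4 had the widest range, 7.93 to 8.09 on the 4 arrays of replicates 1 and 2 and 7.07 and 6.83 on the replicate 3 arrays of Bf 140 nM and DMSO 0.6% (adjusted p = 1.3e-05 from limma). Its second probe set, with 7.71, 7.79 and 7.31 in Bf 140 nM and 7.57, 7.84 and 7.62 in DMSO 0.6%, did not repeat that gap in DMSO 0.6%. GSTO1 had 11.45 to 11.57 on the 4 arrays of replicates 1 and 2 and 12.18 and 12.27 on those of replicate 3 (adjusted p = 1.6e-04). GSTM3 had replicate means of 11.36, 11.04 and 11.63 for replicates 1, 2 and 3, and GSTZ1 had 9.24, 8.82 and 8.64. CYP7B1, which hydroxylates oxysterols and neurosteroids, had replicate means of 6.53, 6.67 and 7.05. The arrays of replicate 3 are those with the 3′ bias of actin given above, and its part in these values was not tested. For GSTO1 the range over replicate means was 0.73 log2, against a treatment difference of 0.04.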

How the data were processed

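The 6 arrays of the 1 h time point were analysed, 3 of Bf 140 nM and 3 of DMSO 0.6%, with groups and replicate numbers from the sample labels. Per the methods, the authors took cell intensities from GCOS, applied variance-stabilizing normalization with Bioconductor in R 2.5.0 (version from the submitters' processing notes) and deposited log2 values, 1 column per array. Base 2 was taken from that method. The summarization of probes and the set of arrays normalized together are not given in the sources. Dim values are compressed on this scale, and the number of arrays limits the precision.

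After 62 platform controls were left out, 22215 probe sets were fitted with limma 3.58.1 in R 4.3.3 (lmFit, eBayes, no filter) and adjusted by Benjamini-Hochberg over all of them, at the FDR level of the study, 0.10. The platform annotation supplied 1 gene symbol for 19064 of these probe sets, several for 1043 and none for 2108. The replicate numbers were taken to pair the arrays, because arrays sharing a number deviated together from the means of their groups (r = 0.725, 0.783 and 0.880). These values are not independent, since deviations within a group cancel out and both replicate 3 arrays stood apart. Over all probe sets, arrays sharing a number correlated at 0.9954 to 0.9979, and arrays of different numbers at 0.9948 or less. SAM, the test of the study, was written anew after its description. The fits and SAM were tested on simulated data. Promoters came from the RefSeq table of GRCh38.p14.

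Genes were named if they were well above the array median, were AHR, ARNT, ALDH3A1, CYP1A1, CYP1A2, CYP1B1, CYP2A6, GSTA1, GSTP1 or SULT1A1, had 1 of the 5 highest or 5 lowest differences or of the 5 widest replicate ranges, or did not overlap between groups with 1 sign in all pairs. Other members named were picked with their values in view, or for their role. The members, lists and alternatives were chosen with earlier results of these data known. UGT1A1, UGT1A6 and GSTA2 were not analysed here as single genes.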

Additional observations from a re-analysis of the deposited data

How the results depend on the processing

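The count of members passing the treatment test was 0 in every setting tried: the replicate block (paired by replicate number), quantile normalization, equal array medians, a filter at the median level, eBayes with trend and robust settings, thresholds of 0.05 and 0.2, leaving out each array, a mean over the probe sets of each gene, and SAM unpaired or paired. The replicate block left the count over all probe sets at 0. With both replicate 3 arrays left out and the replicate block it was 25, of which 0 belonged to members, and the cause was not tested. So few arrays leave little to estimate the variance of each probe set. In that fit the intervals of members such as AHR (-0.13 to 0.28) and CYP1A1 (-0.22 to 0.19) had the same width. Passing there followed the size of the difference. Signs of the 70 differences changed for 3 members under quantile normalization, 5 under equal array medians, 7 with the mean of all probe sets, and 8 to 19 when 1 array was left out. The count of members well above the array median, 7, became 14 for any distance above it and 4 for at least 2 log2, by the construction of the bound. Under quantile normalization GSTM2 was 0.99 log2 above the median, and with the mean of its probe sets SULT1A1 was at 0.75. Measured from the median of the brightest probe sets of all genes, GSTM2 was at 0.54 and SULT1A1 at 0.59. Both were then under the bound of 1 log2. The count of 18 members for the replicate number was 8 with the filter at the median level, which only 17 members pass. It lay between 9 (without the Bf array of replicate 2) and 21 (without the Bf array of replicate 3) when 1 array was left out, and was 10 without the DMSO array of replicate 2. CYP3A4 moved from -0.21 to -0.07 log2, SULT1C2 from 0.19 to 0.07 and CYP3A5 from 0.23 to 0.17 with the mean of all probe sets. CYP3A5 was at 0.16 without both replicate 3 arrays. No detection call or background value was used here, so how near to background the 48 members below the array median lay was not tested.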

Other observations

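Enzymes of these families that share a probe set with another gene were also measured, and 3 of 19 such probe sets were well above the array median. CYP51A1, the P450 of cholesterol synthesis, shares 2 probe sets with LRRD1, and both were well above the median with mean levels of 10.16 and 9.61 log2. They disagreed by replicate number. The first had replicate means of 9.75, 10.06 and 10.65 log2 for replicates 1, 2 and 3 and the second 10.24, 9.71 and 8.87, while their Bf 140 nM minus DMSO 0.6% differences were -0.06 (95% confidence interval -0.85 to 0.74) and 0.00 (-1.11 to 1.11). With the replicate block these intervals were -0.31 to 0.20 and -0.19 to 0.19, and neither probe set passed limma.

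The SULT1A3 and SULT1A4 genes, near-identical copies that sulfate dopamine and other catecholamines, share 3 probe sets with read-through transcripts. Their mean levels were 9.93, 8.95 and 7.58 log2, and only the first was well above the median on all 6 arrays. That probe set was at 9.92, 9.80 and 10.32 in Bf 140 nM and at 9.94, 9.78 and 9.81 in DMSO 0.6%, so its difference of 0.17 log2 (-0.20 to 0.53) came from replicate pair 3, with 0.51. The second, with a mean difference of -0.01, had -0.26, -0.12 and 0.35 in pairs 1, 2 and 3. The third had 0.01, 0.04 and 0.48. In these 2 the DMSO 0.6% array of replicate 3 was the lowest, at 8.51 and 7.16, while in the first the Bf 140 nM array of replicate 3 was the highest.

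In 19 members with several probe sets, the mean levels of the probe sets of a gene spanned 0.02 to 1.64 log2, with a median span of 0.62. In 9 of the 19 genes the differences between Bf 140 nM and DMSO 0.6% had both signs among the probe sets.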
